A study of Mus musculus with 8 samples.

Results

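The keratin genes of the mouse cornea were taken as every row of the deposited table whose name is Krt followed by a number and at most 1 small letter. This gave 52 of the 23597 genes, 27 of type I and 25 of type II. Of the 52, 23 had a mean of at least 0.5 FPKM (fragments per length of gene and per depth of library) and were tested, 29 lay below that level, and 3 of these (Krt40, Krt81 and Krt86) were listed at 0 in every library. The libraries came from corneas of mice with dry eye, 14 days into injections of scopolamine, a muscarinic antagonist. The group named ICI (4 libraries) was also treated with ICI 118551, which blocks β2-adrenergic receptors, and the group named Scop (4 libraries) was not. Every library was made from a pool of 4 corneas. Strain, age, sex and dose are not given in the labels, and neither are the animals behind each pool, so a p-value reflects only how these 8 samples spread, which may be technical. Scopolamine was common to both groups and no cornea without dry eye was sampled, so every difference below is ICI against Scop.

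Keratins are the intermediate filament proteins of epithelial cells. A filament is built from pairs of 1 type I and 1 type II chain, and the pairs change with cell type and state. Basal cells of stratified epithelia are known for Krt5 and Krt14, the limbus and basal corneal epithelium for Krt15, and differentiated corneal epithelium for Krt12, while the conjunctiva and oesophagus make Krt4 and Krt13. Wounded or inflamed stratified epithelia switch on Krt6a, Krt6b, Krt16 and Krt17. Chains that lie outside these roles mark simple epithelia, cornified skin, or the hair shaft and its sheaths.

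The family is laid out in 2 clusters in the RefSeq annotation (GRCm38.p6, the assembly of mm10), where 51 of the 52 genes were found. Of the type I genes, 26 lie on chromosome 11 and 1 (Krt18) on chromosome 15, next to its type II partner Krt8. The 24 type II genes that were found lie on chromosome 15. Of the 23 tested genes 12 were of type I and 11 of type II.

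Depth was between 34510508 (Scop replicate 3) and 40071182 (Scop replicate 1) fragments, as recovered from the FPKM steps of each library. Over the 12100 tested genes limma (on log2(FPKM + 1), Benjamini-Hochberg adjusted over all of them) called 0 at an adjusted p under 0.05, with a smallest adjusted p of 0.0788. Scop replicate 3 stood apart from the other 7 libraries. The summed FPKM of 6 keratocyte markers (cells of the corneal stroma) was 553 there, against 1556 to 2141 in ICI and up to 1862 in Scop. All 6 were at their lowest there, and Ptgds was listed at 0. Fold changes of single genes are therefore given with and without that library. Scop replicate 4, in turn, lay nearer to each ICI library than to any other Scop library over the tested genes (values under the processing).

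Keratin transcripts made up a large share of corneal RNA. They took 5.89% ± 0.127 of all fragments in the ICI libraries and 6.17% ± 0.643 in the Scop libraries (every mean is given ± SD over the 4 libraries of a group). Leaving Scop replicate 3 aside, the share lay between 5.64% and 6.04%, and in that library it was 7.11%. Krt12 was the gene with the highest or second-highest FPKM of all genes in each library, and Krt5 ranked 4 or 5. Fewer cells of a type and less RNA per cell cannot be told apart in such bulk samples.

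Type I transcripts exceeded type II transcripts in every library. Summed FPKM of type I chains was 19086 ± 517 in ICI and 19805 ± 2283 in Scop, and of type II chains 10079.7 ± 283 and 10775 ± 974. The ratio of type I to type II was 1.89 ± 0.0660 in ICI and 1.84 ± 0.0431 in Scop, and the 8 ratios ran from 1.81 to 1.99 with the groups overlapping. Krt12 alone gave 52.2% to 55.3% of the family's summed FPKM and Krt5 22.6% to 25.9%. The ratio of Krt12 to Krt5 was 2.20 ± 0.0881 in ICI and 2.16 ± 0.102 in Scop.

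**Figure D1:**
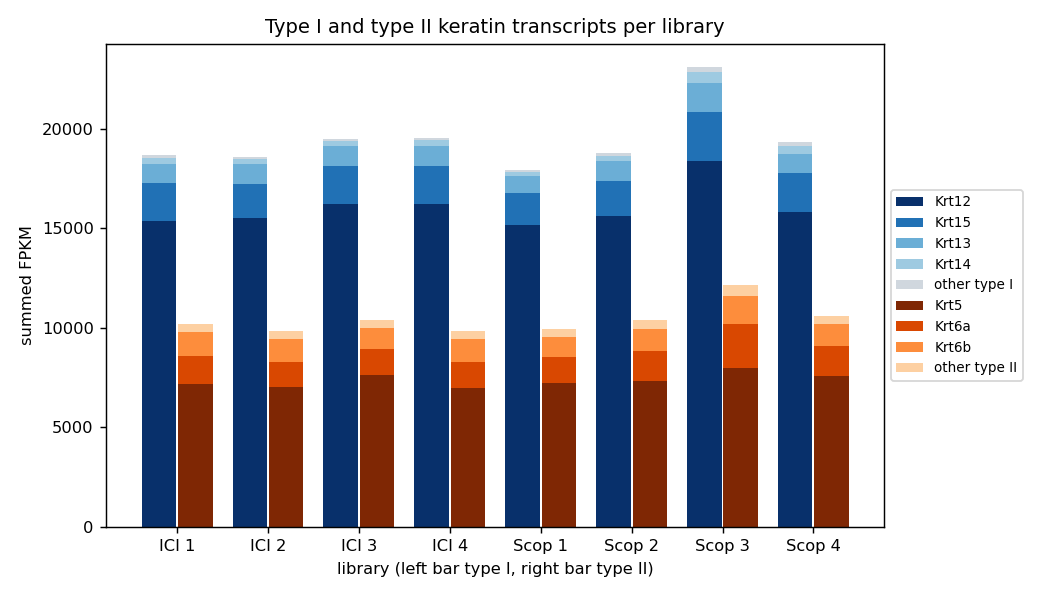
Summed FPKM of type I (blue, left bar) and type II (orange, right bar) keratin genes in each of the 8 libraries, split by gene. Krt12 and Krt5 form the bulk of each bar, the ratio of the bars stays between 1.81 and 1.99, and both bars are highest in Scop replicate 3.

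A few genes carried most of the signal. In the mean over 8 libraries, Krt12 (16052 FPKM), Krt5 (7366), Krt15 (1901), Krt6a (1482), Krt6b (1152) and Krt13 (1035) stood above 1000. Krt14, Krt4 and Krt80 lay between 159.8 and 312 FPKM, Krt19 at 93.8 and Krt7 at 54.0. Krt16, Krt78, Krt17 and Krt23 followed at 10.6 to 21.5 FPKM, and the other tested members lay below 10 FPKM. Neighbours in this order such as Krt6a and Krt6b, or Krt6b and Krt13, overlapped over the libraries, whereas Krt12, Krt5 and Krt15 did not overlap each other.

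**Figure D2:**
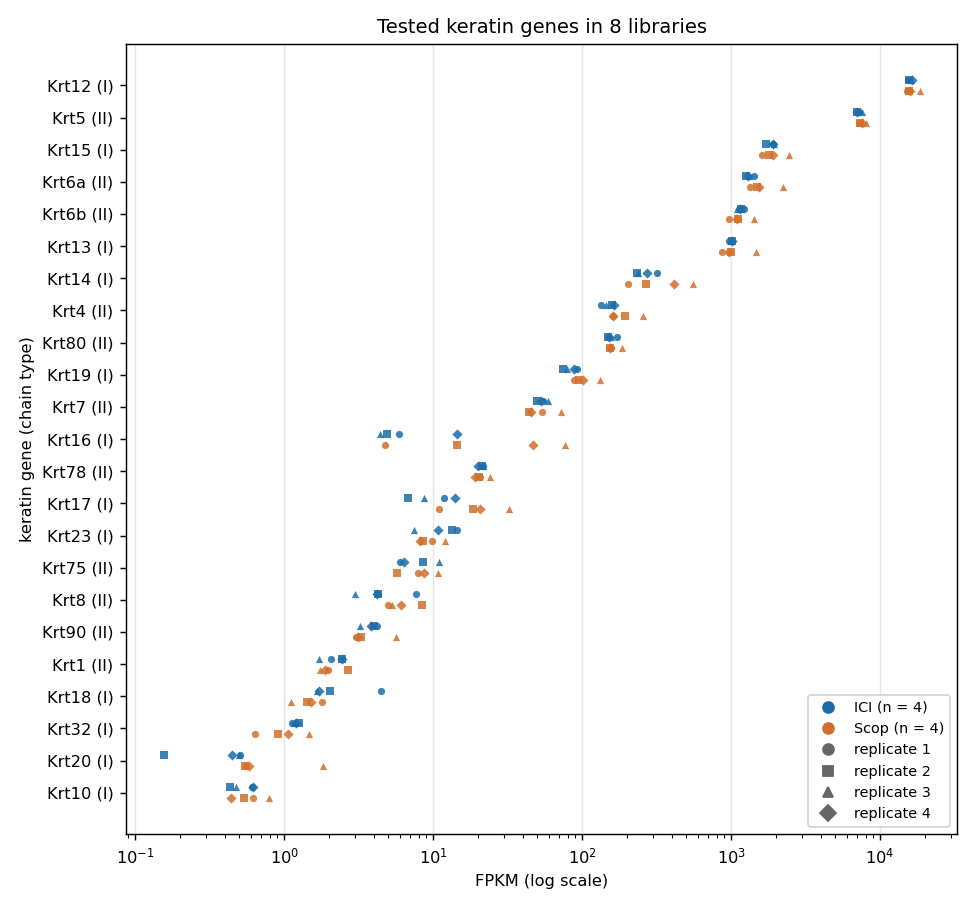
FPKM (log scale) of the 23 tested keratin genes in the 4 ICI libraries (blue) and the 4 Scop libraries (orange), ordered by mean level, with the replicate number as the symbol. The highest point of 18 of the 23 genes is Scop replicate 3 (orange triangle), and the points of Krt16 spread widely in both groups.

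The RefSeq sequences before the starts of the 2 leading genes are shown because these genes carry the bulk of the family's FPKM. Both are read 5′ to 3′ on the minus strand, from 250 bases before the start to the base before it. Capitals mark TATAAA, searched on the strand of the gene, and CACCC, searched on both strands, so that GGGTG is the same motif on the other strand. CACCC is a core letter string of sites bound by KLF factors, and TGANTCA, the AP-1 string, was searched on both strands as well.

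Krt12, chr11:99422260-99422509: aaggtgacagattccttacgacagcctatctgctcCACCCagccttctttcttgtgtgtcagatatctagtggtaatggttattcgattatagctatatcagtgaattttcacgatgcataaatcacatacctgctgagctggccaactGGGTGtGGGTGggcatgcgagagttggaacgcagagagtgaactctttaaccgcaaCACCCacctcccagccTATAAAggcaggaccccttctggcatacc
Krt5, chr15:101712906-101713155: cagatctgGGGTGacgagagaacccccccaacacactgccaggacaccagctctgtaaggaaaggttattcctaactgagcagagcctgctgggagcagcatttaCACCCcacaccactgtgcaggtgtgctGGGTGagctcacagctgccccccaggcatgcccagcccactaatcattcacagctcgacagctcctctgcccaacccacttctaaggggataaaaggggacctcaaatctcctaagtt

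The Krt12 start in that table lies inside the outer bounds of the gene (99415664 to 99422593 on chromosome 11), and the Krt5 start at its outer bound (101707069 to 101712905 on chromosome 15). Krt12 holds TATAAA 29 bases before the start and 4 CACCC, and Krt5 holds 3 CACCC. Neither window holds TATAAA elsewhere or TGANTCA. The table held promoters for 34 of the 52 genes, 14 of them tested, at 35 starts. The tested genes Krt1, Krt4, Krt6a, Krt6b, Krt15, Krt16, Krt17, Krt19 and Krt80 had none there. TATAAA stood 40 to 15 bases before 31.4% of the 35 keratin starts and before 2.0% of all 32817 starts. Among these keratin genes Krt10, Krt12, Krt20 and Krt32 were tested, and the others lay below the level for testing. CACCC was in 80.0% against 52.0%, and TGANTCA in 5.71% against 6.75%. These matches describe letters and not binding.

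In the comparison of ICI with Scop, which asks how blocking the β2-adrenergic receptor bears on the cornea of a dry eye, 0 of the 23 tested keratin genes passed the adjusted test, where 0% of all tested genes did. The smallest adjusted p was 0.293 (Krt17). At an unadjusted p under 0.05, 4 keratin genes were lower in ICI (Krt17, Krt19, Krt4 and Krt16), where 7.46% of all tested genes were. At that threshold 0 were higher, where 4.56% of all tested genes were. Limma-voom on the recovered fragments also called 0 keratins after adjustment, and without it counted 3 lower, where 5.48% of all genes were, and 0 higher, where 6.25% were. Over all genes the split at the unadjusted threshold thus depended on the scaling, with 552 higher and 903 lower here, 756 and 663 by limma-voom, 674 and 746 with median-ratio scaling and 729 and 716 with quantile normalisation. The fold change was negative for 15 and positive for 8 members, with a median of -0.05 on the log2 scale, against -0.015 over all tested genes.

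Without Scop replicate 3, 22 members were tested and 13 fold changes were positive and 9 negative, with a median of 0.03 (all genes -0.03). Krt17, Krt19 and Krt4 were then still lower at an unadjusted p under 0.05, where 9.98% of all genes were, and Krt90 and Krt32 were higher, where 4.21% were. The balance of signs in the family thus turned on 1 library. Of the 23 tested members, 18 had their highest value in Scop replicate 3, whereas 15.01% of all tested genes did. The median ratio of that library to the median of the other 7 was 1.35 for keratins, 21 of 23 above 1, and 0.965 for all tested genes. The low level of keratocyte markers there moved with this, and its part in the keratin values was not tested.

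**Figure D3:**
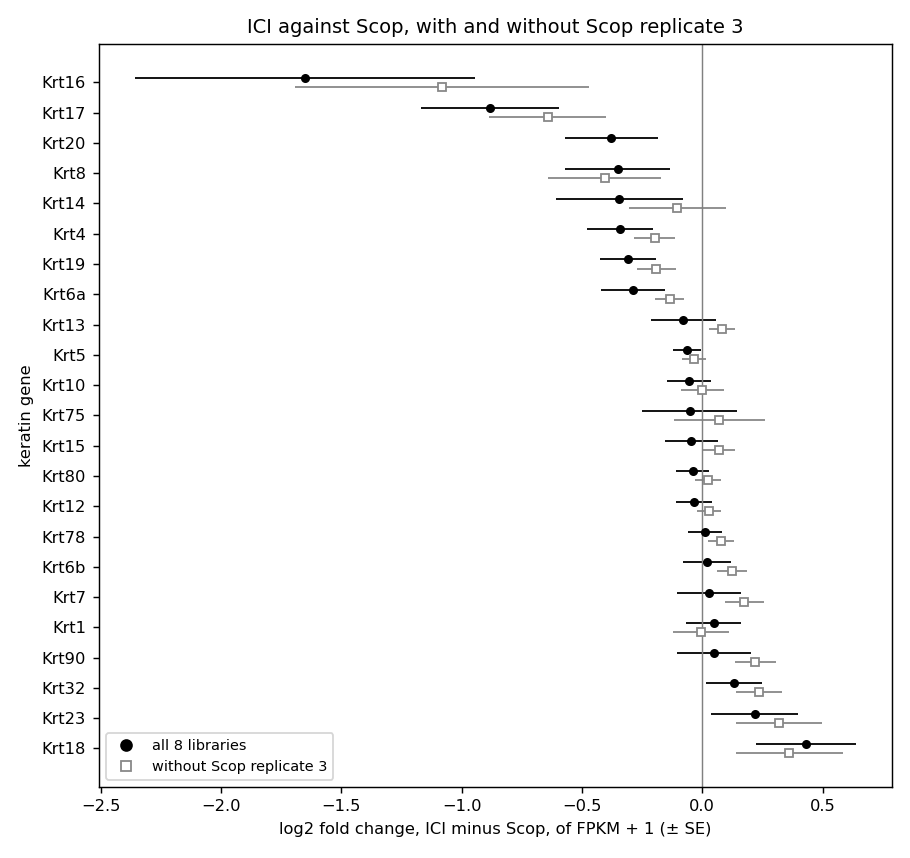
Log2 fold change of FPKM + 1, ICI minus Scop, with its limma standard error, for the 23 tested keratin genes from all 8 libraries (filled circles) and without Scop replicate 3 (open squares, 22 genes). Krt16 and Krt17 lie farthest below 0 in both, and the medians are -0.05 and 0.03.

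Among the 4 keratins of the corneal and basal epithelium, 0 were past an unadjusted p of 0.05. Of all tested genes, 4.56% were higher and 7.46% lower in ICI at that threshold. The FPKM of Krt12 were 15374, 15532, 16229 and 16247 in ICI replicates 1 to 4 and 15153, 15611, 18414 and 15852 in Scop replicates 1 to 4. Scop replicate 3 was the highest, and the other 7 libraries lay between 15153 and 16247. Its log2 fold change was -0.03 (SE 0.07, adjusted p = 0.883), and 0.03 (SE 0.05) without that library.

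Krt5 (chromosome 15), its type II partner in mouse corneal epithelium, was at 7173, 7038, 7609 and 6989 FPKM in ICI and 7221, 7350, 7981 and 7571 in Scop. Again the ranges overlapped, and the log2 fold change was -0.06 (SE 0.06, adjusted p = 0.690), and -0.04 (SE 0.05) without Scop replicate 3. Krt15 (chromosome 11, 100131759 to 100135949) was at 1905, 1707, 1937 and 1897 FPKM in ICI and 1615, 1798, 2426 and 1919 in Scop. Its highest and its lowest value both fell in Scop (log2 fold change -0.04, SE 0.11, adjusted p = 0.894, and 0.07, SE 0.07, without Scop replicate 3).

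Krt14 (chromosome 11, 100203162 to 100207510), the basal type I chain, varied more. It stood at 316, 233, 238 and 273 FPKM in ICI and at 203, 268, 553 and 415 in Scop. Scop replicates 3 and 4 were above every ICI library, and Scop replicate 1 was below every one. The log2 fold change was -0.34 (SE 0.26, adjusted p = 0.629), and -0.10 (SE 0.20) without Scop replicate 3. The median of the 4 genes was -0.05, and -0.0039 without that library, where Krt12 and Krt15 had positive fold changes.

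The widest differences were among the 5 keratins of activated or companion layer epithelium. Of them 2 (Krt16 and Krt17) had an unadjusted p under 0.05, both with lower ICI values, and 0 passed the adjusted test. Their median log2 fold change was -0.29, and -0.14 without Scop replicate 3. Krt17 (chromosome 11, 100256215 to 100261029), a type I chain induced by injury, was at 11.8, 6.81, 8.75 and 14.01 FPKM in ICI. In Scop it was at 11.02, 18.6, 32.4 and 20.6. Scop replicates 2, 3 and 4 lay above all ICI libraries, and Scop replicate 1 lay among them. These values rest on 419 to 1737 fragments per library. The log2 fold change was -0.88 (SE 0.29, adjusted p = 0.293), and -0.64 (SE 0.24, adjusted p = 0.278) without Scop replicate 3.

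Krt16 (chromosome 11, 100246091 to 100248902), a type I partner of the Krt6 chains, had the largest relative spread of the tested members in Scop. Its FPKM were 5.86, 4.93, 4.37 and 14.4 in ICI and 4.73, 14.4, 77.1 and 46.7 in Scop. Only Scop replicates 3 and 4 lay above the ICI range, Scop replicate 2 was level with the highest ICI library, and Scop replicate 1 was level with the low ones. Fragments ran from 270 to 4171. The log2 fold change was -1.65 (SE 0.71, adjusted p = 0.395), and -1.08 (SE 0.61, adjusted p = 0.457) without Scop replicate 3 and -1.32 without Scop replicate 4. Set against the level of the corneal keratin in the same library, Krt16 stood at 0.269 to 0.885 FPKM per 1000 FPKM of Krt12 in ICI. The same measure was 0.312 and 0.919 for Scop replicates 1 and 2 and 4.19 and 2.94 for replicates 3 and 4.

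Krt6a (chromosome 15, 101689928 to 101694305) and Krt6b (chromosome 15, 101676023 to 101680293), neighbouring type II genes of activated epithelium, were abundant in all libraries. Krt6a was at 1416, 1250.2, 1313 and 1302 FPKM in ICI and 1340.4, 1487, 2219 and 1526 in Scop, where replicates 2, 3 and 4 lay above every ICI library. Its log2 fold change was -0.29 (SE 0.13, adjusted p = 0.423), and -0.14 (SE 0.06, adjusted p = 0.354) without Scop replicate 3. Krt6b was at 1221, 1161, 1091 and 1148 FPKM in ICI and 968, 1118, 1415 and 1095 in Scop. Here the ICI values lay inside the Scop range, and the log2 fold change was 0.02 (SE 0.10, adjusted p = 0.952), 0.125 (SE 0.06, adjusted p = 0.394) without Scop replicate 3, and -0.01 after quantile normalisation. Krt75, the type II keratin of the hair follicle companion layer, was at 7.99 ± 2.31 FPKM in ICI and 8.28 ± 2.08 in Scop (log2 fold change -0.05, SE 0.20, and 0.07, SE 0.19, without Scop replicate 3).

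**Figure D4:**
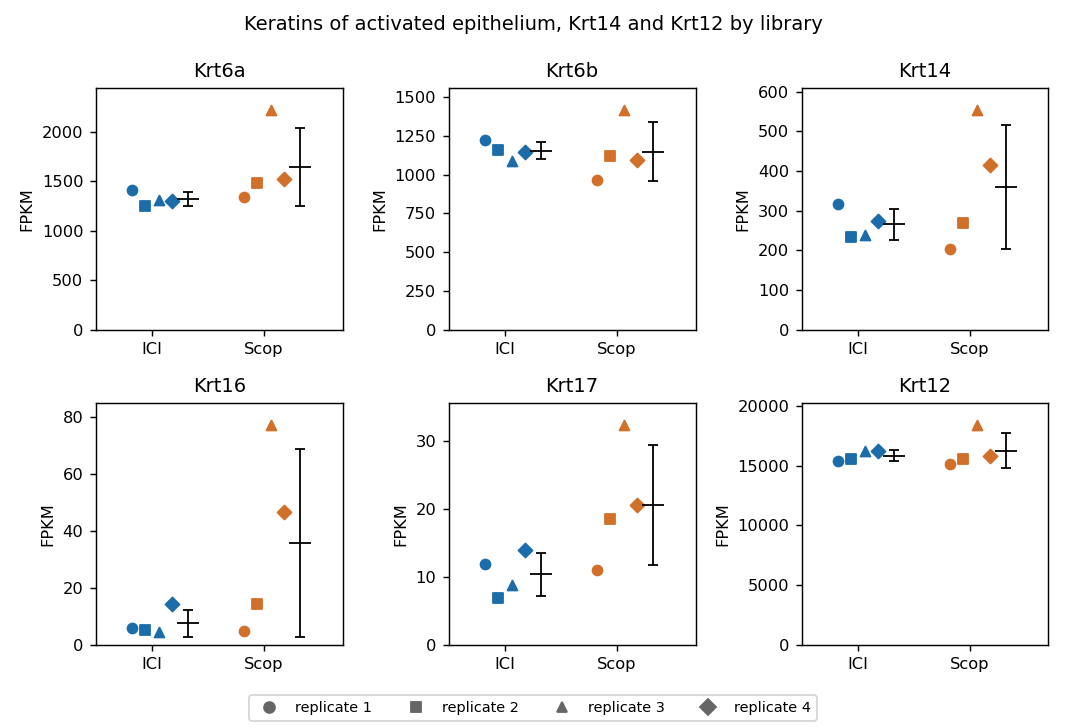
FPKM by library (symbols mark the replicate number) of Krt6a, Krt6b, Krt14, Krt16, Krt17 and, for reference, Krt12, with the mean and SD (n = 4) at the right of each group and axes from 0. Krt16 reaches 77.1 and 46.7 FPKM in Scop replicates 3 and 4, whereas Krt12 lies between 15153 and 18414 FPKM in all 8 libraries.

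The ratio of Krt6a to Krt6b separated the groups, which was noticed after the values had been seen. It was 1.16, 1.08, 1.20 and 1.13 in ICI replicates 1 to 4 and 1.38, 1.33, 1.57 and 1.39 in Scop replicates 1 to 4. The highest ICI ratio was thus below the lowest Scop ratio, also without Scop replicate 3. The difference of the mean log2 ratios was -0.31, and between -0.34 and -0.26 with each library left out in turn. An exact two-sided permutation test gave p = 0.0286, the smallest that 4 against 4 allows, and an adjusted p of 0.249 over the 253 ratios between 2 tested keratins. Every ratio without overlap has these same values, so they only restate the separation by which this ratio was noticed. Of those 253 ratios 132, this one among them, had a difference at least as large in either direction. The groups did not overlap in 29 of the 253, or 11.5%. Krt20 was in 11 of the 29, Krt6a in 5 and Krt6b in 4, and Krt32 was in more of them than Krt6a. Krt20 reached the level for testing only with Scop replicate 3, so the 11.5% counts ratios of a gene tested only through that library.

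How far the 2 genes could be told apart in counting depends on their sequences. In the GENCODE M21 transcripts (GRCm38), the coding parts of Krt6a and Krt6b were identical at 97.8% of aligned bases, with 37 of 1659 differing and a longest identical run of 280 bases. Of all 100-base windows of the Krt6a transcript, 31.8% stood unchanged in another keratin transcript, as did 30.1% of those of Krt6b. The coding window with the most differences, bases 771 to 870 counted from the first base of the start codon, shows where fragments could be assigned. Capitals mark the 14 bases that differ.

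Krt6a: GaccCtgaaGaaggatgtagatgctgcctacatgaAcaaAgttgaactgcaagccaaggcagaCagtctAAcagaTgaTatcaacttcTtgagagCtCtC
Krt6b: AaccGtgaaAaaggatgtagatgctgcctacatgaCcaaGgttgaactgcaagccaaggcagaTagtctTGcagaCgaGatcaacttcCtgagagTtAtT

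How the authors counted fragments that fit both genes is not given in the sources used here. The level of each gene, their ratio and their sum may all depend on it. The summed FPKM of Krt6a and Krt6b was 2475 ± 110 in ICI and 2792 ± 579 in Scop, with the groups overlapping. Identity was lower among the other close relatives. It was 86.7% between the coding parts of Krt14 and Krt16, 85.7% between Krt14 and Krt17 and 80.5% between Krt16 and Krt17. Of 100-base windows, 2.88% of those of Krt14 and 3.14% of those of Krt16 were shared, and Krt17 shared none. Of 50-base windows, 14.4% of those of Krt14, 12.4% of those of Krt16 and 3.995% of those of Krt17 were shared with other keratins.

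**Figure D5:**
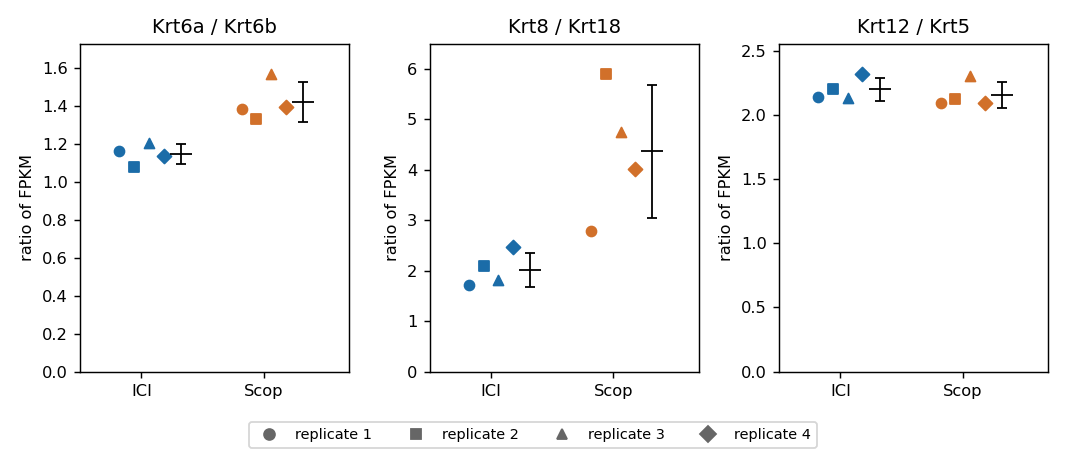
Ratio of FPKM within each library for Krt6a over Krt6b, Krt8 over Krt18 and Krt12 over Krt5, with symbols for the replicate number and the mean and SD (n = 4) at the right of each group. The first 2 ratios do not overlap between the groups, with ICI at 1.08 to 1.20 and 1.72 to 2.46 against Scop at 1.33 to 1.57 and 2.78 to 5.91, and Krt12 over Krt5 does. The first 2 are among 29 of 253 keratin ratios (11.5%) without overlap. Krt20, tested only through Scop replicate 3, is in 11 of these.

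Keratins of mucosal stratified epithelium were well expressed apart from Krt76. Of 4 listed genes 3 were tested, and 0 passed the adjusted test. Of the tested genes 1 (Krt4) was lower at an unadjusted p under 0.05, where 7.46% of all tested genes were. Krt13 (chromosome 11, 100117327 to 100121566), the type I chain of the pair, was at 966, 1013, 998 and 1007 FPKM in ICI and 865, 992, 1468 and 969 in Scop. The ICI libraries were close together (SD 21.1), and Scop replicate 3 lay far above all of them. The log2 fold change of -0.08 (SE 0.14, adjusted p = 0.844) became 0.08 (SE 0.05) without that library.

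Krt4 (chromosome 15, 101918535 to 101924735), its type II partner, was at 134, 159, 145 and 163 FPKM in ICI and 162, 194, 257 and 162 in Scop. Only the highest ICI value reached the Scop range. Its log2 fold change was -0.34 (SE 0.14, adjusted p = 0.359), and -0.20 (SE 0.09, adjusted p = 0.334) without Scop replicate 3. Krt78 was at 21.1 ± 0.761 FPKM in ICI and 21.0 ± 2.15 in Scop (log2 fold change 0.01, SE 0.07, and 0.08, SE 0.05, without Scop replicate 3). Krt76, a keratin of the hard palate, was at most at 0.286 FPKM and not tested.

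The 6 keratins of simple epithelium had mean levels from 0.640 to 93.8 FPKM. Of them 1 (Krt19) was lower at an unadjusted p under 0.05, where 7.46% of all tested genes were. Krt19 (chromosome 11, 100140810 to 100145926), a type I chain also known from the limbus and conjunctiva, was at 91.8, 73.9, 79.5 and 88.2 FPKM in ICI. In Scop it was at 88.0, 95.7, 132 and 102. The groups overlapped through ICI replicates 1 and 4 and Scop replicate 1. Its log2 fold change was -0.31 (SE 0.12, adjusted p = 0.341), and -0.19 (SE 0.08, adjusted p = 0.323) without Scop replicate 3. Krt7, a type II chain of glandular and conjunctival epithelium, was at 54.1 ± 3.94 FPKM in ICI and 53.9 ± 12.8 in Scop (log2 fold change 0.03, SE 0.13). Without Scop replicate 3 the value for Krt7 was 0.17 (SE 0.08, adjusted p = 0.369). Krt23 was at 11.5 ± 3.13 and 9.60 ± 1.72 FPKM (log2 fold change 0.22, SE 0.18, and 0.32, SE 0.18, without that library).

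Krt8 and Krt18, the pair of simple epithelia, were low. Krt8 (chromosome 15, 101996711 to 102004342) was at 7.63, 4.28, 2.98 and 4.20 FPKM in ICI and 5.005, 8.36, 5.31 and 6.05 in Scop, with ICI replicate 1 and Scop replicate 2 the highest. Krt18 (chromosome 15, 102028216 to 102032026) was at 4.45, 2.04, 1.65 and 1.71 FPKM in ICI and 1.80, 1.41, 1.12 and 1.51 in Scop. In ICI, replicate 1 stood apart from the other 3. The corneal endothelial markers Slc4a11 and Col8a2 were also highest there, at 41.4 and 85.4 FPKM against 9.65 to 22.6 and 25.9 to 60.7 in the other 7 libraries. The sum of all 4 such markers was 281 FPKM in that library, 185 to 203 in the other ICI libraries and 196 to 231 in Scop, and its part in the Krt8 and Krt18 values was not tested. The log2 fold changes were -0.35 (SE 0.22, adjusted p = 0.551) for Krt8 and 0.43 (SE 0.21, adjusted p = 0.447) for Krt18, the latter being 0.19 without ICI replicate 1. Without Scop replicate 3 they were -0.41 (SE 0.24) and 0.36 (SE 0.22). Their ratio, Krt8 over Krt18, was 1.72, 2.10, 1.81 and 2.46 in ICI and 2.78, 5.91, 4.75 and 4.02 in Scop, with no overlap (exact permutation p = 0.0286, adjusted p = 0.249 over the 253 ratios). This ratio is among the 29 of 253, or 11.5%, that did not overlap, 11 of them with Krt20. All 29 share that p, which therefore only restates the lack of overlap. Fragments of Krt18 numbered 54 to 245 per library. Both genes have processed copies in the genome, whose handling in the counts is not given in the sources used here.

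Krt20 (chromosome 11, 99428385 to 99438153), a type I keratin of intestinal and urothelial cells, was the 1 tested member whose ICI values all lay below its Scop values, where 4.36% of all tested genes were. Its FPKM were 0.509, 0.156, 0.495 and 0.450 in ICI and 0.551, 0.548, 1.83 and 0.584 in Scop. The gap between the groups was narrow, and it rests on 39, 12, 38 and 33 fragments in ICI and 43, 42, 123 and 41 in Scop. Without Scop replicate 3 its mean fell under the level required for testing. With it, the log2 fold change was -0.38 (SE 0.19, adjusted p = 0.470). In 0 of 23 did every ICI value exceed every Scop value, where 2.63% of all tested genes did so.

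Keratins of cornified skin, of the inner root sheath and of hair were at or near the floor. Of 5 skin genes, Krt1 (2.11 FPKM in the mean of all libraries) and Krt10 (0.565) were tested. Neither passed an unadjusted p under 0.05, where 4.56% of all tested genes were higher and 7.46% lower. Their log2 fold changes were 0.05 and -0.06, and -0.0052 and 0.0008 without Scop replicate 3. Krt10 was scaled by a gene length of 10555 bases, whereas its longest coding transcript has 2094, so on a transcript scale its levels would be 2.19 to 3.97 FPKM if all fragments came from that transcript. For Krt7 the length used was 1586 bases and that of the transcript 4094, so levels compared between genes depend on the authors' gene models. The 5 inner root sheath genes of the table summed to at most 0.203 FPKM in a library. Of 17 hair keratins, Krt32 (1.11 FPKM) was tested, at 1.13, 1.27, 1.17 and 1.21 FPKM in ICI and 0.640, 0.903, 1.47 and 1.07 in Scop (log2 fold change 0.13, SE 0.12, and 0.24, SE 0.09, without Scop replicate 3). Among the remaining genes, Krt80, a type II keratin of differentiating stratified epithelium, was at 157 ± 10.2 FPKM in ICI and 162 ± 14.8 in Scop (log2 fold change -0.04, SE 0.07, and 0.02, SE 0.05, without Scop replicate 3). Krt90 was at 3.84 ± 0.426 and 3.78 ± 1.27 FPKM (log2 fold change 0.05, SE 0.15, and 0.22, SE 0.09, without that library).

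The labelled tissue was checked against markers of other cells that a dissected cornea could carry. The corneal epithelial markers Krt12, Krt5, Aldh3a1, Tkt and Pax6 summed to 34157 to 36432 FPKM in ICI and 34238 to 38712 in Scop, all 5 well above 0. For lid skin, 2 of 6 markers were tested, the sum was 2.26 to 3.15 FPKM in ICI and 2.59 to 4.36 in Scop, and Flg and Lor reached at most 0.0148 and 0.0284 FPKM. Krtdap, a gene of skin keratinocytes, was at 1.82 FPKM in Scop replicate 3 and at most at 0.360 elsewhere. Of the other markers in this list, Krt10 was also highest in that library (0.788 FPKM). Krt1 (1.73 FPKM there), Krt2, Flg and Lor were not. Of 7 conjunctival and goblet cell markers 6 were in the table, 4 of them keratins, and the sum was 1249.9 to 1315 FPKM in ICI and 1172 to 1936 in Scop. Outside the keratins, the goblet cell gene Spdef reached at most 0.0508 FPKM, and Agr2, a gene of secretory cells, was at 3.67 ± 0.382 in ICI and 5.20 ± 1.73 in Scop. The part of conjunctiva in the levels of Krt4, Krt13, Krt19 and Krt7 was not tested.

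A list of 24 genes held desmosome and hemidesmosome components and linkers that anchor keratin filaments, and also Krtcap2 and Krtcap3, which are not known to anchor filaments. All 24 were tested and 0 had an unadjusted p under 0.05, where 4.56% of all tested genes were higher and 7.46% lower. Of the fold changes 20 were negative and 4 positive, against 6709 and 5391 of all 12100 tested genes. The median was -0.04 with and without Scop replicate 3, against -0.015 and -0.03 over all genes. The smallest p belonged to Dsc2, a desmosomal cadherin, at 258 ± 5.12 FPKM in ICI and 280.0 ± 17.8 in Scop (log2 fold change -0.115, SE 0.05, adjusted p = 0.417, and -0.07 without that library). Next were Pkp1, a desmosomal plaque protein (216 ± 14.9 and 242 ± 24.8 FPKM, log2 fold change -0.16, and -0.09 without that library, adjusted p = 0.428), and Eppk1, a keratin-binding plakin (1.83 ± 0.149 and 1.54 ± 0.145, log2 fold change 0.15, and 0.16 without it, adjusted p = 0.459). Of 15 other intermediate filament genes 6 were tested and 0 passed an unadjusted p under 0.05, beside the same shares of all tested genes. The smallest p there were those of the lamin genes Lmnb2 (9.07 ± 2.07 in ICI and 11.2 ± 0.454 FPKM in Scop), Lmnb1 (57.6 ± 6.78 and 62.7 ± 2.14) and Lmna (37.0 ± 2.87 and 42.8 ± 7.59). Their log2 fold changes were -0.30, -0.13 and -0.19, and -0.32, -0.10 and -0.10 without Scop replicate 3.

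Among 25 transcription factors known to act on keratin genes, at an unadjusted p under 0.05 there were 3 with higher and 4 with lower values in ICI, where 4.56% and 7.46% of all tested genes were, and 0 passed the adjusted test (median -0.06, and -0.04 without Scop replicate 3). Ovol1, a repressor active in differentiating epithelium, was at 27.1, 26.3, 22.3 and 18.3 FPKM in ICI and 19.5, 15.1, 15.99 and 13.3 in Scop (log2 fold change 0.53, SE 0.13, adjusted p = 0.211). The groups overlapped only through ICI replicate 4 and Scop replicate 1. Klf5, a factor of proliferating epithelium, was at 49.8, 51.3, 48.4 and 48.8 FPKM in ICI and 53.2, 55.2, 61.8 and 55.7 in Scop, with no overlap (log2 fold change -0.18, SE 0.05, adjusted p = 0.267). Grhl2 in this list and Fam83h among the linkers also lay lower in ICI without overlap, as did 4.36% of all tested genes. Junb, an AP-1 subunit, was at 166, 139, 114 and 81.0 FPKM in ICI and 89.2, 79.7, 93.1 and 84.7 in Scop, where ICI replicate 4 lay among the Scop libraries (log2 fold change 0.48, SE 0.18, adjusted p = 0.340). Without Scop replicate 3 the log2 fold changes of Ovol1, Klf5 and Junb were 0.53, -0.14 and 0.51. Pax6, which acts on Krt12 in the cornea, was at 160 ± 10.2 FPKM in ICI and 165 ± 6.52 in Scop.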

How the data were processed

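RNA was sequenced from 8 samples of pooled mouse corneas, 4 per group, grouped by their titles. The authors deposited 1 table of FPKM values, made with fastp, HISAT2, HTSeq and the build mm10, per the submitters' processing notes. The sources used here do not give versions, annotation, strand setting or the handling of fragments that fit several genes. Those settings bear on near-identical keratins such as Krt6a and Krt6b.

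The FPKM steps gave whole fragments for 100.0% of the 22776 genes above 0 (tolerance 0.01), with totals of 34510508 to 40071182 per library. For 772 genes a common factor had to be supplied from the gene length. No pair of libraries differed by sampling noise alone. As chi-square per degree of freedom over tested genes, distances ran from 14.9 (Scop replicates 1 and 2) to 97.2. Scop replicate 4 was at 20.5 to 33.9 from the ICI libraries and at 67.1 to 84.8 from the other Scop libraries. The cause was not tested.

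The test was that of limma 3.58.1 with an eBayes trend (R 4.3.3), applied to log2(FPKM + 1) for genes averaging at least 0.5 FPKM, two-sided, with Benjamini-Hochberg adjustment over all 12100 and a threshold of 0.05. The script was tested on simulated data. Fold changes on this scale understate those of low genes. Ratios between 2 keratins were compared by exact permutation. Sequences came from RefSeq (GRCm38.p6) and GENCODE M21, aligned with Biopython 1.88.

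The members and lists were chosen with earlier results of these data known. Named were the keratins with a mean of at least 10 FPKM, the tested corneal, mucosal, activated and simple keratins, those with an unadjusted p under 0.05, and the 3 smallest p of each other list. Krt1, Krt10, Krt32, Krt90, Krt76, Pax6, Grhl2, Fam83h and the marker genes fall outside that rule. Alternatives were pseudocounts of 0.1 and 5, no filter, a mean of at least 5 FPKM, median-ratio and quantile scaling, eBayes without trend or robust, a replicate block, limma-voom on the recovered fragments, and leaving out each library.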

Additional observations from a re-analysis of the deposited data

Results flagged for a closer look

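In each group of 4 libraries the highest and the lowest value of each tested keratin were compared with the nearest of the others, and 6 values in 46 groups stood apart (their gap, as a share of the group's range, was above Dixon's critical value). Chance alone flags about 1 in 20 groups. In Scop replicate 3, Krt20 was at 1.83 FPKM with the next Scop library at 0.584, Krt80 at 184 with the next at 155, and Krt90 at 5.67 with the next at 3.28. In ICI, Krt16 was at 14.4 FPKM in replicate 4 with the next at 5.86, and Krt18 at 4.45 in replicate 1 with the next at 2.04. Krt20 was at 0.156 FPKM in ICI replicate 2, which is 12 fragments, with the next at 0.450.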

How the results depend on the processing

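Over 407 fold changes of single keratin genes under the alternatives, 386 kept the direction found with all libraries and 21, of 11 genes, turned; 0 passed an adjusted p under 0.05, and the smallest was 0.187 (Krt17 without Scop replicate 1). Keratins at an adjusted p under 0.05 stayed at 0 under each alternative run. Those lower at an unadjusted p under 0.05 numbered 2 with no filter and 2 after median-ratio scaling, in place of 4, and 1 to 6 with 1 library left out (1 without ICI replicate 3, 6 without Scop replicate 1). Those higher numbered 0 to 2 with 1 library left out (2 without ICI replicate 3 or Scop replicate 3). Over all genes, those higher numbered 862 with no filter and 318 at a mean of at least 5 FPKM, in place of 552, since more or fewer genes were tested. With 1 library left out, 0 to 4 genes were higher and 0 to 2 lower at an adjusted p under 0.05, the 4 and the 2 without Scop replicate 4. Krt12 turned to 0.0145 and Krt6b to -0.012 after quantile normalisation. With 1 library left out the log2 fold changes that turned ranged from -0.0052 to 0.138 for Krt1, -0.104 to 0.0008 for Krt10, -0.0657 to 0.028 for Krt12, -0.172 to 0.0827 for Krt13, -0.127 to 0.0684 for Krt15, -0.0575 to 0.125 for Krt6b, -0.058 to 0.174 for Krt7, -0.204 to 0.0706 for Krt75, -0.0301 to 0.0763 for Krt78, -0.083 to 0.0228 for Krt80 and -0.0232 to 0.22 for Krt90; the cause was not tested. Same-numbered libraries correlated at 0.287, -0.009, 0.138 and 0.077 in their deviations from the group means, and differently numbered ones at -0.28 to 0.141. These values do not settle whether the replicate numbers pair the samples. With the number as a replicate block, 1 keratin was higher and 6 were lower at an unadjusted p under 0.05, as were 643 and 869 of all 12100 genes. Leaving out each library for the ratio of Krt6a to Krt6b was added after the data had been seen. Depth limits Krt20, Krt18 and Krt32, which rest on as few as 12, 54 and 44 fragments in a library.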
